A study of Mus musculus with 18 samples.

Results

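The response of wild-type mouse fibroblasts to hypertonic medium in the presence of Torin1, an ATP-competitive inhibitor of the kinase mTOR, was measured on 6 of the 18 microarrays of the series. The members were chosen by array title: the 3 arrays titled WT 500T, from hypertonic medium, against the 3 titled WT 300T, from isotonic medium, each numbered 1, 2 and 4. All cells were mouse embryonic fibroblasts of strain 129sv/ev, and the cells of these 6 arrays came from the line labelled NFAT5 wild-type 5.4. Both Torin1 groups received 100 nM Torin1, with a 1 h pretreatment. The 6 wild-type arrays without Torin1, in isotonic or hypertonic medium, and 6 arrays of the line labelled NFAT5 knock-out 5.1, also without Torin1, served as comparisons. One labelled line stood for each genotype, and no knockout array received Torin1. The titles give the media only as 300 and 500, without a unit, and the labels do not say how long the cells stayed in hypertonic medium. Nothing in the labels says that equal-titled arrays came from separate cultures, so the p-values reflect array-to-array spread alone, which may be technical.

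NFAT5, also called TonEBP, is the transcription factor that vertebrate cells use to adapt to high extracellular salt. It binds tonicity-responsive enhancers and raises transporters and enzymes that accumulate compatible organic osmolytes such as myo-inositol, betaine and taurine, which replace potentially harmful salt inside the shrunken cell. mTOR is the catalytic kinase of 2 complexes that couple nutrients and growth factors to ribosome production, translation and the actin cytoskeleton, and Torin1 blocks both complexes. The question put to these arrays is which part of the hypertonic program was measured with mTOR kinase activity inhibited in both media.

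Array medians lay between 6.96 and 7.13 on the log2 scale, and no pair of the 18 arrays held identical values. Within the Torin1 groups the arrays correlated at 0.968 to 0.997 over all genes tested. The arrays numbered 4 stood apart, in every group for Lcn2 and Saa3. Lcn2, an acute-phase protein, read 7.08 and 6.62 on isotonic Torin1 arrays 1 and 2 but 13.89 on array 4, and 6.65, 6.70 and 13.72 on the hypertonic arrays. Saa3, another acute-phase gene, read 5.61, 5.32 and 11.42 against 5.43, 5.50 and 10.75, and the interferon-induced gene Ifit1 read 6.66, 6.57 and 12.19 against 7.02, 6.61 and 11.38. These 3 genes were picked after their values were seen, and the part of this difference in the results below was not tested beyond the values given without the arrays of number 4. Of the fibroblast markers, 13 of 14 measured passed the expression filter, which a gene passes if any of the 6 group means lies above it. Mean levels of the list were 10.25 to 10.62 on the isotonic and 10.19 to 10.56 on the hypertonic Torin1 arrays. Fap did not pass. Lum passed only through another group, since its Torin1 means of 4.39 in isotonic and 4.27 in hypertonic medium lay below the filter level. Nfat5, the gene targeted in the knockout line, read 10.40, 10.03 and 10.12 on isotonic and 10.48, 10.36 and 10.01 on hypertonic Torin1 arrays. It read 9.72 to 9.83 on isotonic and 9.73 to 10.22 on hypertonic knockout arrays, so its level does not check the deletion. Isotonic knockout array 1 carries a wild-type genotype label against its title, and it was kept in the knockout group. It read 11.33 for Sorbs2, where the other knockout arrays read 10.60 to 11.60 and the wild-type arrays 6.07 to 8.56. For Slc6a6 it read 10.58, beside 9.35 to 10.97 and 11.81 to 13.01. On both genes, chosen after their values were seen, it lay with the knockout arrays.

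With Torin1 present, hypertonic medium raised 260 genes and lowered 270 of 15711 tested. The largest increases included the myo-inositol transporter gene Slc5a3 and its neighbour Mrps6, and the linker histone gene H1f3. The largest decreases included P4ha3, a collagen prolyl hydroxylase subunit. A gene is called changed here when its adjusted p is under 0.05 in limma, with Benjamini-Hochberg adjustment over all genes tested. The 530 called genes were 3.37% of those tested, 1.65% called higher and 1.72% called lower. At least 2-fold changes were called for 71 genes, 0.452% of those tested, of which 46 were higher and 25 lower. The median change over all genes was 0.02 on the log2 scale, and 2604 genes had an unadjusted p under 0.05. The hypertonic and isotonic arrays did not overlap for 3181 genes, 20.2% of those tested, and all 530 called genes were among them. With the array number as a replicate block, 1235 genes, 7.86%, were called, 641 higher and 594 lower, and they included all 530. Normalizing the arrays by quantiles again gave 733 called genes, 433 higher and 300 lower, and centring each array on its median gave 258 higher and 328 lower. Leaving out 1 array left 187, 264 and 291 calls without isotonic arrays 1, 2 and 4, and 384, 161 and 520 without hypertonic arrays 1, 2 and 4. Of the 530 genes, 128 were called in each of these 6 fits. Without all arrays of number 1 or of number 2, no gene was called in limma, though 1780 and 1160 had an unadjusted p under 0.05. Without all arrays of number 4, 1564 genes were called.

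Among osmolyte genes, Slc5a3 rose 4.42-fold. This gene encodes the sodium-coupled transporter that brings myo-inositol into the cell. It read 8.52, 8.11 and 8.77 on isotonic arrays 1, 2 and 4 and 10.65, 10.97 and 10.21 on the hypertonic arrays, in log2 units. Every hypertonic array lay above every isotonic array, and hypertonic array 2 was the highest. The change was 2.15 ± 0.29 (SE, n = 3 arrays per group; adjusted p = 0.00117). Mrps6, which encodes a protein of the small mitochondrial ribosomal subunit, read 9.56, 9.64 and 9.30 on the isotonic arrays and 11.93, 12.22 and 11.37 on the hypertonic ones. Its change was 2.34 ± 0.29 (adjusted p = 0.00103), or 5.06-fold, again with no overlap between the groups. Both calls held without any single Torin1 array. With isotonic knockout array 1 moved to the wild-type group, the adjusted p of Slc5a3 was 0.112.

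Slc5a3 and Mrps6 are annotated on the same strand of chromosome 16, and their starts lie 14 bases apart, so their array values are not independent of each other. The 134 bases around these starts are shown because the 2 leading genes share them. They are chr16:92058202-92058335 on the plus strand of build GRCm38.p6 (RefSeq), written 5′ to 3′, and the capitals mark the bases between the Slc5a3 and Mrps6 starts.
Slc5a3: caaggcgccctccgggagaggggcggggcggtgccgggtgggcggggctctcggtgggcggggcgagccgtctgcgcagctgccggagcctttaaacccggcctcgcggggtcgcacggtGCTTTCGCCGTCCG
The searched promoter window of Slc5a3, from 250 bases before to 50 after its start, holds no match to the tonicity-responsive enhancer motif, which says only that these letters are not in this window. Slc6a12, the betaine transporter gene, has a match 75 bases upstream in 1 of its 5 annotated start windows and none in the other 4, shown in capitals because this is the kind of element that NFAT5 binds. The stretch is chr6:121342489-121342519, plus strand, same build.
Slc6a12: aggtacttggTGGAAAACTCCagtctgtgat
On both strands, 4.96% of 32851 promoter windows of the same length hold such a match, a share per window and not per gene.

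In the fit of all arrays without the replicate block, the other osmolyte genes did not pass the test. Of 12 tested members of that list, 1 was called higher, beside 1.65% of all genes, and 0 lower. Their median change was 0.33 beside 0.02 over all genes, and the replicate block called 3, beside 7.86% of all genes. Slc6a12 read 6.82, 6.60 and 7.07 in isotonic against 7.58, 8.31 and 7.12 in hypertonic medium, a change of 0.84 ± 0.44 (adjusted p = 0.378). Its hypertonic array 2 was the highest, and hypertonic array 4 lay only just above the isotonic range. Aqp1, a water channel, read 9.48, 8.49 and 7.74 against 10.18, 10.10 and 8.44, and the groups overlapped. Its difference was 1.01 ± 0.54 (adjusted p = 0.384). Slc6a6, the taurine transporter, differed by -0.65 ± 0.25 (adjusted p = 0.18). Without all arrays of number 4, a choice made after values were seen, Slc6a12 passed at 1.23 (adjusted p = 0.00177). So did Aqp1 at 1.16 (adjusted p = 0.012) and Slc6a6 at -0.70 (adjusted p = 0.0339). Without number 1 or number 2 no gene was called. The replicate block on all arrays gave these genes adjusted p of 0.0667 to 0.2685. On only the Torin1 arrays it called Aqp1 (adjusted p = 0.00748) and Slc6a6 (adjusted p = 0.0079). Slc38a2, a neutral amino acid transporter, differed by -0.40 (adjusted p = 0.129), and with the replicate block its adjusted p was 0.0439. Nfat5 itself differed by 0.10 ± 0.16 (adjusted p = 0.849), less than the spread of its arrays.

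**Figure D1:**
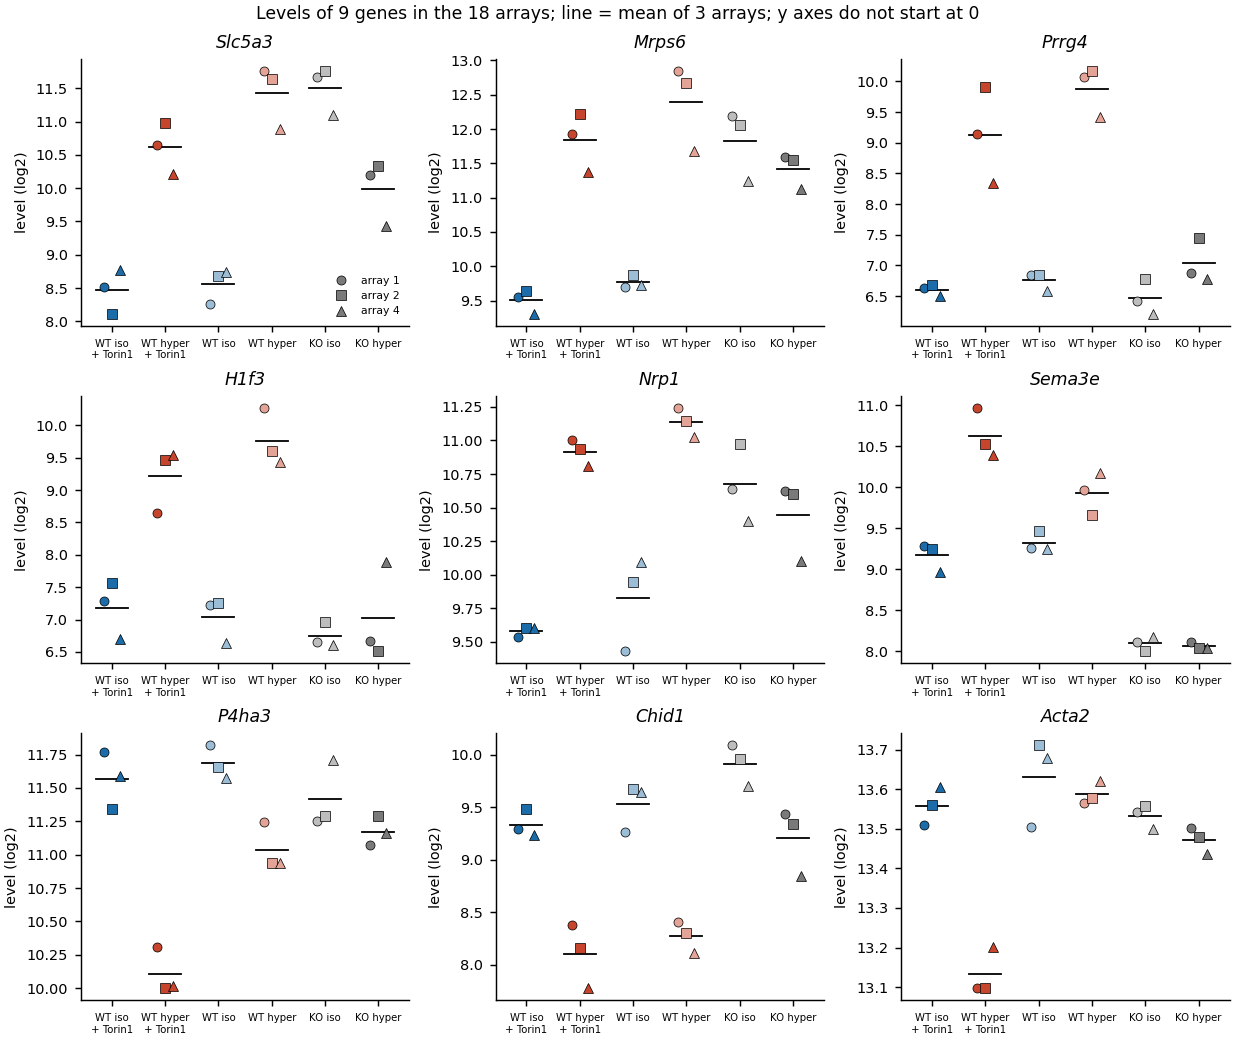
Log2 expression (y axis, not starting at 0) of 9 genes on each array of the 6 groups (x axis), with 1 point per array and a line at each group mean. Slc5a3 lay at 8.11 to 8.77 on the isotonic and 10.21 to 10.97 on the hypertonic Torin1 arrays, and Acta2 was lower on the hypertonic arrays with Torin1, at 13.10 to 13.20 against 13.51 to 13.61.

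None of the 19 heat-shock genes tested, the chaperones that protect proteins in stressed cells, was called in either direction, beside 3.37% of all genes, a share at which less than 1 call falls on a list of this size. Their median change was 0.17, and the replicate block called 2. Hspa4l, an Hsp110-family chaperone known for its osmotic regulation, read 7.85, 8.16 and 7.31 on the isotonic arrays and 9.08, 9.52 and 8.16 on the hypertonic ones. Its difference was 1.15 ± 0.38 (adjusted p = 0.123), and the replicate block gave an adjusted p of 0.0162. Hspa1a, an inducible Hsp70, read 9.31, 9.24 and 9.10 against 9.73, 9.55 and 9.58. The groups did not overlap, and the difference was 0.40 ± 0.12 (adjusted p = 0.0718, or 0.0394 after normalizing by quantiles again). Hsph1, the major Hsp110 chaperone, differed by 0.58 (adjusted p = 0.111, or 0.0441 with the replicate block). The serum- and glucocorticoid-regulated kinase Sgk1 differed by 0.42 ± 0.17 (adjusted p = 0.216).

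The 12 largest increases under the naming rule were Sprr1a, Prrg4, Mrps6, Slc5a3, Tcim, H1f3, Myct1, Tnfrsf23, Angpt2, Nup210l, Epha7 and Slc6a9. Prrg4, which encodes a transmembrane Gla-domain protein, read 6.64, 6.67 and 6.50 in isotonic against 9.14, 9.91 and 8.34 in hypertonic medium. It rose 5.76-fold, by 2.53 ± 0.31 (adjusted p = 0.000873), and hypertonic array 4 was the lowest of its group. Nup210l, a relative of the nuclear pore protein Nup210, read 7.23, 7.27 and 6.39 against 8.40, 8.92 and 8.78, a rise of 1.74 ± 0.20 (adjusted p = 0.000863). Sprr1a, a precursor of the cornified envelope of skin, had the largest change of the 12, 2.86 ± 0.72 (adjusted p = 0.0408), with 6.58, 7.01 and 6.29 against 10.11, 10.97 and 7.39. Its hypertonic array 4 lay close to the isotonic range, and its adjusted p was 0.0773 to 0.204 without any 1 of the other 5 Torin1 arrays. Tcim, an immune and transcription regulator, rose by 2.12 ± 0.48 (adjusted p = 0.0221), a call lost without isotonic array 1 or 2 or hypertonic array 1 or 2 (adjusted p 0.0646 to 0.112). Slc6a9, the glycine transporter GlyT1, rose by 1.68 ± 0.42 (adjusted p = 0.0399), a call lost without any 1 of the Torin1 arrays other than hypertonic array 4 (adjusted p 0.0668 to 0.185). U90926, a long noncoding RNA outside the naming rule and chosen after its values were seen, rose 9.13-fold, by 3.19 ± 0.48 (adjusted p = 0.00292). It read 7.29, 7.25 and 7.77 on the isotonic arrays and 10.96, 11.54 and 9.38 on the hypertonic ones.

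Some ligands and receptors of vessel and axon guidance rose. They were put on a list after values were seen, so its counts follow from that choice and are no evidence about the group. Of its 26 tested members 8 were called higher, beside 1.65% of all genes, and 0 lower, with a median change of 0.49. Among the ligands, Sema3e, a class 3 semaphorin that signals through plexin D1, read 9.29, 9.25 and 8.97 in isotonic against 10.97, 10.52 and 10.40 in hypertonic medium. Its rise of 1.46 ± 0.15 had the smallest adjusted p of the comparison, 0.000369, shared with P4ha3. Angpt2, a ligand of the endothelial receptor Tie2, read 6.97, 6.99 and 7.88 against 8.72, 9.09 and 9.34, a rise of 1.77 ± 0.33 (adjusted p = 0.00856). Among the receptors, Nrp1, a co-receptor for semaphorins and VEGF, read 9.54, 9.60 and 9.60 against 11.01, 10.93 and 10.81. It rose 2.53-fold, by 1.34 ± 0.18 (adjusted p = 0.00117), and its arrays within each group lay close together. The ephrin receptor gene Epha7 rose by 1.70 ± 0.30, from 8.39, 8.12 and 9.0 to 9.99, 10.36 and 10.27. Plxna2, a semaphorin receptor, rose by 0.96 ± 0.20 (adjusted p = 0.0168), a call lost without isotonic array 4 or hypertonic array 1 or 2 (adjusted p 0.0649 to 0.0965). The remaining called members are known from endothelial cells. Myct1 rose by 1.80 ± 0.28, Cd93 by 1.31 ± 0.22, and Thbd, the thrombin receptor thrombomodulin, by 1.26 ± 0.17, with 9.27, 9.33 and 9.5 against 10.45, 11.01 and 10.40. The 7 endothelial markers fixed for the check had mean levels of 5.88 to 6.03 on the isotonic and 5.94 to 6.10 on the hypertonic arrays. Of them 5 passed the filter, Pecam1, Cdh5, Tek, Tie1 and Vwf, and Kdr and Emcn did not. Vwf had the highest mean of the list in both media, 7.06 in isotonic and 6.90 in hypertonic medium. In bulk samples, fewer cells of a type and less RNA per cell cannot be told apart.

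Of the tumour necrosis factor receptor family, 3 of 17 members tested were called higher, beside 1.65% of all genes, and 0 lower. This list, with a median change of 0.28, was also drawn up after values were seen, so its counts are no evidence about the family. Tnfrsf23, a mouse decoy receptor for the death ligand TRAIL, read 9.71, 9.65 and 8.91 on the isotonic arrays and 11.41, 11.90 and 10.34 on the hypertonic ones. It rose by 1.79 ± 0.31 (adjusted p = 0.00598), and array 4 was the lowest in both media. Tnfrsf22, its close paralogue and also a decoy receptor, rose by 1.61 ± 0.36 (adjusted p = 0.0218), a call lost without any 1 Torin1 array other than hypertonic array 4 (adjusted p 0.0546 to 0.121). Probes of these paralogues may share signal, so the 2 rises are uncertain as separate events. Tnfrsf21, also called death receptor 6, rose by 1.42 ± 0.27 (adjusted p = 0.011), a call lost without isotonic array 1 (adjusted p = 0.0517) or hypertonic array 2 (adjusted p = 0.0628). Csf1r, the receptor for macrophage colony-stimulating factor, rose by 1.04 (adjusted p = 0.0284), from 7.74, 7.88 and 7.69 to 8.99, 9.36 and 8.08. That call was lost without any 1 Torin1 array other than hypertonic array 4 (adjusted p 0.0669 to 0.149). It belongs to the macrophage marker list, 5 of whose 8 measured members passed the filter. The mean level of that list was 6.28 to 6.41 on the isotonic and 6.52 to 6.60 on the hypertonic arrays, and Ptprc, Adgre1 and Aif1 lay below the filter.

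Histone genes rose in part. Linker histones bind the DNA between nucleosomes. Of their 6 tested genes 2 were called higher, beside 1.65% of all genes, and 0 lower, with a median change of 0.63. H1f3 read 7.29, 7.56 and 6.69 in isotonic against 8.64, 9.46 and 9.54 in hypertonic medium, a 4.09-fold rise of 2.03 ± 0.35 (adjusted p = 0.00539). H1f10, a replication-independent member, rose by 0.74 ± 0.16 (adjusted p = 0.0192), a call lost without isotonic array 2 or 4 or hypertonic array 2 (adjusted p 0.06 to 0.101). H1f2 read 11.82, 12.05 and 11.44 against 12.64, 12.79 and 13.09. The groups did not overlap, and its difference of 1.07 ± 0.29 had an adjusted p of 0.0564, or 0.0421 with the replicate block. Of 22 core histone genes tested, 2 were called higher, beside the same 1.65%, and 0 lower, with a median change of 0.21. The replicate block called 6, beside 7.86% of all genes. H2bc4 rose by 0.99 ± 0.18 (adjusted p = 0.007), and H3c4 by 1.52 ± 0.36 (adjusted p = 0.0287), a call lost without isotonic array 1 or 4 or hypertonic array 2 or 4 (adjusted p 0.0746 to 0.1). Histone genes are near-identical copies, so signal may be shared between members.

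The 150 bases upstream of H1f3 and H1f2 are shown because the H1 box, AAACACA, and the CCAAT box are the classic elements of replication-dependent H1 promoters. They are chr13:23554882-23555031 for H1f3 and chr13:23738657-23738806 for H1f2, plus strand of GRCm38.p6 (RefSeq), with both elements in capitals.
H1f3: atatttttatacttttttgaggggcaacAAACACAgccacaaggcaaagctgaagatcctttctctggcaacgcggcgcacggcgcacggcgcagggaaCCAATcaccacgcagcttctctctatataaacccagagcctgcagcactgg
H1f2: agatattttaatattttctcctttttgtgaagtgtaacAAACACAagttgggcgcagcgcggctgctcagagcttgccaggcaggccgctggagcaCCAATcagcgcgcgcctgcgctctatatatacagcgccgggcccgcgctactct
The H1 box lies 122 bases upstream in H1f3 and 112 in H1f2, and the CCAAT box 51 and 54 upstream. H1f10, the other called linker histone gene, has neither in its searched window. H1f5, which was not called at 0.51 ± 0.33 (adjusted p = 0.495), holds the H1 box 117 bases upstream and a CCAAT box 53 upstream. Among all 32851 windows, on both strands, 7.18% hold the H1 box and 37.4% hold CCAAT.

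Genes of ribosome production, a process that mTOR promotes, lay above 0 for 33 of 36 tested, with a median change of 0.38. Of them 1 was called higher, beside 1.65% of all genes, and 0 lower. With the replicate block, 9 of them were called, beside 7.86% of all genes. The called gene, Polr1a, encodes the largest subunit of RNA polymerase I. It read 9.36, 9.29 and 9.25 on the isotonic arrays and 9.98, 10.04 and 9.77 on the hypertonic ones, a rise of 0.63 ± 0.11 (adjusted p = 0.00521). Of 27 ribosomal protein genes tested 0 were called, or 1 with the replicate block, and of 30 mitochondrial ribosome genes 1 was called, Mrps6, or 3 with the block. Of 24 regulators of mTOR tested, 2 were called higher, beside the same 1.65%, and 0 lower, with a median change of 0.08. The replicate block called 4, beside the same 7.86%. Nprl2, a subunit of the GATOR1 complex that restrains mTORC1, read 8.86, 9.01 and 8.88 against 9.52, 9.60 and 9.94, a rise of 0.77 ± 0.10 (adjusted p = 0.00126). Deptor, an inhibitor bound to both mTOR complexes, rose by 0.88 ± 0.17 (adjusted p = 0.0126), a call lost without isotonic array 1 or 2 or hypertonic array 2 (adjusted p 0.0605 to 0.068). Stress-induced mTORC1 inhibitors did not pass the test. Ddit4 differed by 0.63 ± 0.37 (adjusted p = 0.45), Ddit4l by 0.87 ± 0.42 (adjusted p = 0.324), Sesn1 by -0.27 ± 0.14 (adjusted p = 0.358) and Sesn2 by -0.07 ± 0.31 (adjusted p = 0.954).

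Of 21 amino acid transporter genes tested, 2 were called higher and 1 lower, with a median change of 0.17, and the replicate block called 5. Over all genes 3.37% were called, 1.65% higher, and the replicate block called 7.86%. Besides Slc6a9, the glutamate transporter gene Slc1a3 read 6.42, 6.23 and 6.80 in isotonic against 7.49, 7.52 and 7.73 in hypertonic medium, a rise of 1.10 ± 0.14 (adjusted p = 0.00117). Slc1a1, another glutamate transporter, fell by 0.72 ± 0.18 (adjusted p = 0.0376), a call lost without any 1 Torin1 array other than hypertonic array 1 (adjusted p 0.0709 to 0.185). Of 24 immediate early genes tested, 3 were called higher, beside that 1.65%, and 0 lower, with a median change of 0.19. That median was 0.41 and 0.55 within numbers 1 and 2, but -0.31 within number 4. The called genes were the AP-1 member Fosl1 at 1.37 ± 0.29, the MAP kinase phosphatase Dusp1 at 0.84 ± 0.22 and the transcription factor Klf4 at 0.66 ± 0.14. Fosl1 lost its call without isotonic array 1 or 4 or hypertonic array 2 (adjusted p 0.0515 to 0.102). Klf4 lost it without isotonic array 1 or hypertonic array 1 or 2 (adjusted p 0.0522 to 0.0894), and Dusp1 without any 1 Torin1 array (adjusted p 0.072 to 0.154). The antioxidant enzyme gene Hmox1 was the called member of 18 NRF2 targets tested, at 0.69 ± 0.16 (adjusted p = 0.0272). The clock gene Per3 was the called member of 17 circadian genes tested, and it fell by 0.97 ± 0.22 (adjusted p = 0.0247). The replicate block called 4 of the NRF2 targets and 2 of the circadian genes. Hmox1 lost its call without any 1 Torin1 array other than hypertonic array 4 (adjusted p 0.0534 to 0.149), and Per3 without isotonic array 1 or 2 or hypertonic array 2 or 4 (adjusted p 0.0679 to 0.115).

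The 12 largest decreases under the naming rule were Naaladl2, P4ha3, Cstad, Cyp4f13, Clybl, Chid1, Sorbs2, Sync, Tgm2, C1qtnf12, Ctso and Dnase1l1. P4ha3 read 11.77, 11.34 and 11.59 on the isotonic arrays and 10.30, 10 and 10.01 on the hypertonic ones. It fell by 1.46 ± 0.14 (adjusted p = 0.000369), with a gap between the groups wider than the range of either. Cyp4f13, a cytochrome P450 of fatty acid oxidation, read 9.96, 9.76 and 9.80 against 8.60, 8.61 and 8.31, a fall of 1.33 ± 0.21 on the log2 scale (adjusted p = 0.0038). Chid1, a chitinase-domain lectin, read 9.29, 9.48 and 9.23 against 8.38, 8.16 and 7.78, with a change of -1.23 ± 0.18 (adjusted p = 0.00214). The secreted protein gene C1qtnf12 changed by -1.11 ± 0.21 and the nuclease gene Dnase1l1 by -1.10 ± 0.20, and both kept their calls without any single Torin1 array. Naaladl2 had the largest decrease of the 12, -1.96 ± 0.36 (adjusted p = 0.00843), from 8.60, 7.94 and 9.43 to 6.80, 6.18 and 7.12. Its adjusted p was 0.0539 without hypertonic array 2, and averaging its probe sets gave a change of -0.96 (adjusted p = 0.0579). The mitochondrial lyase gene Clybl, at -1.24, lost its call without isotonic array 1 or 2 or hypertonic array 2 (adjusted p 0.057 to 0.0587). Cstad, at -1.37, lost it without any 1 array other than hypertonic array 4 (adjusted p 0.0596 to 0.119). Tgm2, a protein cross-linking enzyme at -1.12, lost it without isotonic array 1 or 2 or hypertonic array 2 or 4 (adjusted p 0.051 to 0.0722). The lysosomal protease gene Ctso, at -1.11, lost it without isotonic array 4 or hypertonic array 2 (adjusted p 0.061 and 0.0712). Of the cytoskeletal genes, Sorbs2, at -1.14, lost it without isotonic array 1 or 4 or hypertonic array 1 or 2 (adjusted p 0.079 to 0.2), and Sync, at -1.13, without isotonic array 1 or 2 or hypertonic array 2 (adjusted p 0.0558 to 0.075). Over the 24 genes of the 2 lists, 14 kept their calls in each of the 6 leave-outs.

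Contractile and collagen genes fell in part. Of 17 targets of the actin-sensing factor SRF tested, 3 were called lower, beside 1.72% of all genes, and 0 higher. Of the 17, 16 lay below 0, with a median change of -0.25. Acta2, smooth muscle actin, read 13.51, 13.56 and 13.61 in isotonic against 13.10, 13.10 and 13.20 in hypertonic medium. It fell by 0.43 ± 0.07 (adjusted p = 0.00539), a small step with no overlap. Tpm2, a tropomyosin, fell by 0.65 ± 0.11 (adjusted p = 0.00472), and Myl9, a myosin light chain, by 0.70 ± 0.16 (adjusted p = 0.0218). The call of Myl9 was lost without any 1 Torin1 array other than hypertonic array 1 (adjusted p 0.0533 to 0.106). Of 29 genes of collagen and its processing tested, 4 were called lower, beside the same 1.72%, and 0 higher, with a median change of -0.17. Besides P4ha3 the called genes were Loxl3, a lysyl oxidase that cross-links collagen, and Crtap and P3h3, which belong to the prolyl 3-hydroxylase machinery. Loxl3 read 9.40, 9.43 and 9.55 against 8.87, 8.50 and 8.85, a change of -0.72 ± 0.11 (adjusted p = 0.00306). Crtap changed by -0.52 ± 0.13 and P3h3 by -0.47 ± 0.11. Crtap lost its call without any 1 Torin1 array other than hypertonic array 1 (adjusted p 0.051 to 0.205), and P3h3 without isotonic array 1 or 4 or hypertonic array 1 or 2 (adjusted p 0.0531 to 0.118). The collagen chain genes themselves were not among the called members.

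MicroRNA genes of the imprinted Dlk1-Dio3 region of chromosome 12, which carries one of the largest microRNA clusters of the genome, fell in part. Of 40 measured genes of the cluster 30 passed the filter, with a median change of -0.44. Of these 8 were called lower, beside 1.72% of all genes, and 0 higher. With the replicate block 14 were called, beside 7.86% of all genes. The arrays were hybridised with total RNA, and their values do not separate precursor or host transcript from mature microRNA. The mature sequences are shown because they carry the identity of the genes, with the seed, bases 2 to 8, in capitals (RefSeq, GRCm38.p6), and the 4 seeds differ from each other.
Mir377, 3p arm: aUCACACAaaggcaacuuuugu
Mir300, 3p arm: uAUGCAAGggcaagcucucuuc
Mir329, 3p arm: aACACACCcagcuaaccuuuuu
Mir99a, 5p arm: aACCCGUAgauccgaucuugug
Mir377 read 9.60, 9.51 and 9.30 on the isotonic arrays and 8.13, 8.22 and 8.12 on the hypertonic ones, a change of -1.32 ± 0.17 (adjusted p = 0.00103) that held in every leave-out. Mir300, at -0.88, lost its call without isotonic array 1 or 2 (adjusted p 0.0526 and 0.063), and Mir329, at -0.71, without isotonic array 1 or 2 or hypertonic array 1 (adjusted p 0.0612 to 0.0742). The other called cluster genes, Mir376b, Mir341, Mir679, Mir665 and Mir337, each lost the call without 1 or more arrays. Outside the cluster, 2 of 142 microRNA genes tested were called lower, near the 1.72% of all genes, and 0 higher. The replicate block called 5 of them, a smaller share than the 7.86% of all genes. Mir99a, on chromosome 16, read 8.15, 7.79 and 7.95 against 6.81, 6.67 and 7.36, a change of -1.02 ± 0.17 (adjusted p = 0.00481). Mir145a changed by -1.22 ± 0.26 (adjusted p = 0.0197), a call lost without isotonic array 1 or 4 or hypertonic array 1 or 2 (adjusted p 0.0626 to 0.0814).

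**Figure D2:**
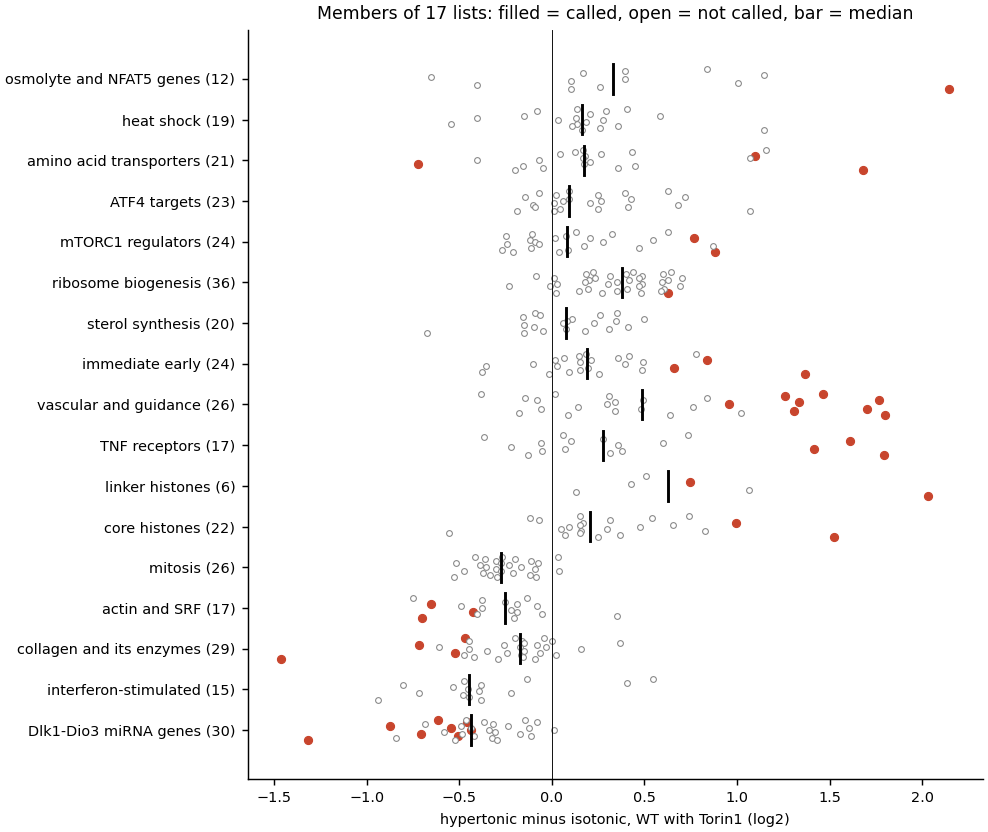
Change in hypertonic medium with Torin1 (log2, x axis) of every tested gene in 17 gene lists (y axis), with filled points for called genes, open points for the rest and a bar at each list's median. The bars lie at 0.49 for vessel and axon guidance and at -0.44 for the chromosome 12 microRNA cluster, beside 0.02 over all genes.

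Several lists had no called member, where 3.37% of all genes were called, so few calls would fall on lists of these sizes. These were the unfolded protein response (19 tested), ATF4 targets (23), sterol synthesis (20), fatty acid synthesis (14), lysosomal genes (23), FOXO targets (24), p53 targets (18), hypoxia and glycolysis genes (24), DNA replication (31), mitosis (26), ion transport and volume regulation (17), NF-kB targets and cytokines (21) and small leucine-rich matrix proteoglycans (11). With the replicate block, which called 7.86% of all genes, 1 member was called for the unfolded protein response, sterol synthesis and lysosomal lists each. It called 2 for the fatty acid, FOXO and hypoxia lists each. Of the 26 mitosis genes, 24 lay below 0 without a call, with a median change of -0.27. That median was -0.37 and -0.53 within numbers 1 and 2, but 0.17 within number 4. Interferon-stimulated genes, 15 of which were tested, had a median of -0.45 and acute-phase genes, 6 tested, one of -0.14, also without a call. Leaving out isotonic array 4 alone gave 0.71 and 1.13, but this keeps hypertonic array 4, and the arrays numbered 4 are those with high Lcn2, Saa3 and Ifit1. Within numbers 1, 2 and 4 the interferon median was -0.19, -0.22 and -1.01.

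Paired by number, the 3 hypertonic-minus-isotonic differences correlated over genes at 0.627 for numbers 1 and 2, 0.486 for numbers 1 and 4, and 0.441 for numbers 2 and 4, and genes are not independent replicates. The 46 genes called at least 2-fold higher had median differences of 1.38, 1.70 and 1.19 for numbers 1, 2 and 4. Number 4 gave the smallest difference for 31 of them, and number 2 the largest for 30. The 25 genes called at least 2-fold lower had medians of -1.06, -1.19 and -1.18. Without all arrays of number 1, number 2 or number 4, the 2-fold calls numbered 0, 0 and 172.

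**Figure D3:**
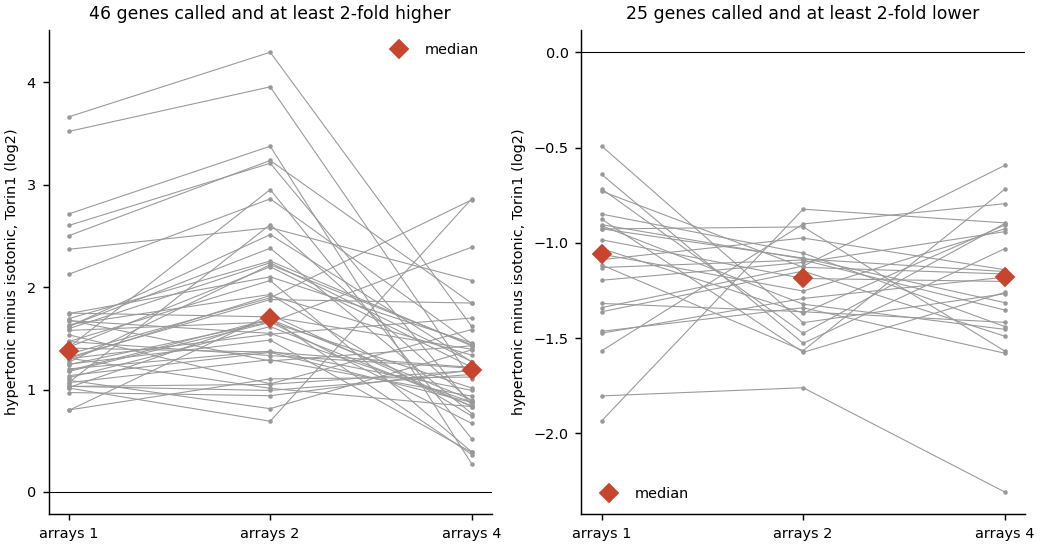
Hypertonic minus isotonic log2 difference with Torin1 (y axis) for array numbers 1, 2 and 4 (x axis), with 1 line per gene for the 46 genes called at least 2-fold higher and the 25 called at least 2-fold lower, and diamonds at the medians. The higher genes' medians are 1.38, 1.70 and 1.19, and the lower genes' medians are -1.06, -1.19 and -1.18.

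Wild-type cells without Torin1 answer how the same medium change read in the same line without the inhibitor, on 6 other arrays. There 1295 genes, 8.24% of those tested, were called, and 2360, 15%, with the replicate block. Of the 530 genes called with Torin1, 526 had the same sign without it, beside 73.6% of all genes, and 402 were called in both. Those 402 are 75.8% of the calls with Torin1 and 31.0% of the calls without it, and none had opposite signs. Among them the median size was 0.66 with Torin1 and 0.69 without, and 237 were smaller with Torin1. Over all 1295 genes called without Torin1, which were chosen on their change there, the median size was 0.42 with and 0.59 without, and 1118 were smaller with Torin1. All 46 genes called at least 2-fold higher were higher without Torin1, 40 of them called, and all 25 lower genes were lower, 24 of them called. Slc5a3 changed by 2.86 without Torin1, Mrps6 by 2.64, Prrg4 by 3.12 and H1f3 by 2.72. Of the 12 osmolyte genes tested, 4 were called higher without Torin1 at a median of 0.55, and of the heat-shock genes 5 were called higher.

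The difference between the responses, with Torin1 minus without, was called for 0 genes, 0% of those tested, with limma, and 0 with the replicate block. An unadjusted p under 0.05 was found for 317 genes, 2.02% of those tested. That share is smaller than a threshold of 0.05 would pass on average if no gene differed. The median gene's 95% interval for this difference, before adjustment over all genes, extended 0.40 to each side. Differences larger than that also missed the adjusted threshold, as for genes named below. Having 0 calls therefore does not show that the responses were equal. The interval ran from -1.59 to 0.15 for Slc5a3 around -0.72, from -1.18 to 0.58 for Mrps6, and from -1.51 to 0.33 for Prrg4. For some genes it excluded 0 before adjustment, and these genes were picked after their values were seen. Hspa1a rose by 1.23 without Torin1, and its difference between the responses was -0.82 (-1.17 to -0.47). Slc1a3 rose by 1.83 without Torin1, with a difference of -0.73 (-1.16 to -0.30). Sema3e rose by 0.61 without Torin1, with a difference of 0.85 (0.41 to 1.29), and Thbd had a difference of 0.56 (0.06 to 1.07). P4ha3 changed by -0.65 without Torin1, with a difference of -0.82 (-1.25 to -0.38). Acta2 read 13.50 to 13.71 in isotonic and 13.57 to 13.62 in hypertonic medium without Torin1, with a difference of -0.38 (-0.60 to -0.16). None of these 6 differences passed adjustment over all genes, where the smallest adjusted p was 0.99997.

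**Figure D4:**
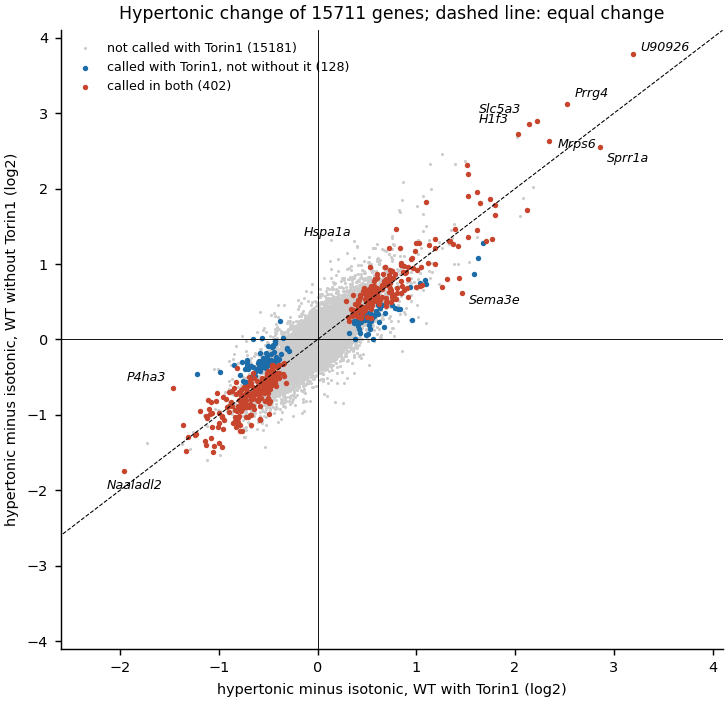
Change in hypertonic medium without Torin1 (log2, y axis) against the change with it (x axis) for each tested gene of wild-type cells, coloured by calls. The 402 genes called in both lie in the quadrants of equal sign, and Hspa1a lies at 0.40 with and 1.23 without Torin1.

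The knockout line was exposed to the same media without Torin1, so line and inhibitor cannot be told apart in a comparison with it. There 4734 genes, 30.1% of those tested, were called in hypertonic medium. Of the 530 genes called with Torin1 in wild-type cells, 440 had the same sign there, beside 60.8% of all genes, and 310 were called in both, 287 with the same sign and 23 with the opposite sign. They are 58.5% of the calls in wild-type cells with Torin1 and 6.55% of those in the knockout line. Of the 46 genes called at least 2-fold higher, 29 were higher in the knockout line and 12 called so, and of the 25 lower genes 24 were lower and 13 called so. The difference between the responses was called for 1932 genes, 12.3%, of which 1261 were higher and 671 lower in wild-type cells with Torin1. Centring each array on its median turned that split to 751 higher and 1710 lower and moved the median difference to -0.19.

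Slc5a3 showed the largest positive difference of the named genes. It read 11.67, 11.75 and 11.09 on isotonic and 10.19, 10.34 and 9.43 on hypertonic knockout arrays, a change of -1.52, so its isotonic level there was above the hypertonic level of wild-type cells with Torin1 on every array. The difference of responses was 3.66 ± 0.41 (adjusted p = 0.000189), and 0.0885 was its adjusted p without all arrays of number 2. Mrps6 read 12.18, 12.06 and 11.25 against 11.59, 11.54 and 11.13 in the knockout line, and the difference was 2.75 (adjusted p = 0.000904, or 0.0641 with isotonic knockout array 1 as wild-type). Prrg4 differed by 1.95 and H1f3 by 1.75, beside 0.57 and 0.28 in the knockout line, which did not pass the test. With the replicate block the knockout change of Prrg4 passed, at an adjusted p of 0.0313. The difference of H1f3 lost its call in 8 of 12 fits without 1 array (adjusted p 0.0508 to 0.0869). Sema3e, at 8.0 to 8.17 on all knockout arrays, differed by 1.49, and Nrp1 by 1.57. Nup210l rose by 2.29 in the knockout line and Cyp4f13 changed by -1.35, and their differences of -0.55 and 0.02 were not called. In the chromosome 12 microRNA cluster 27 of 30 genes were called lower in the knockout line, at a median of -1.05, against -0.44 with Torin1 in wild-type cells. Mir377 changed by -2.75 there, and the difference was 1.44. In the other direction, Il1f9, an interleukin-1 family cytokine, changed by 4.84 in the knockout line and by -0.11 in wild-type cells with Torin1, and Plcxd2 by 1.86 and -0.17.

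**Figure D5:**
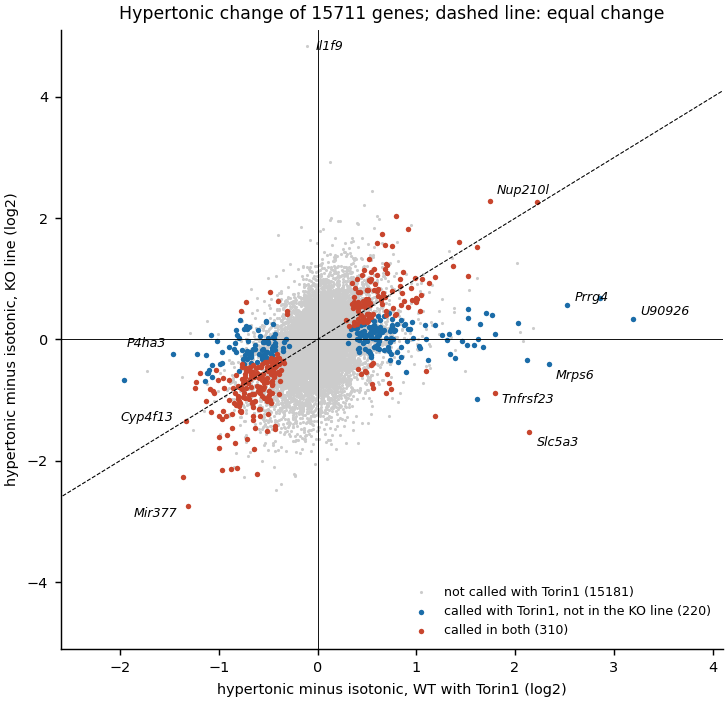
Change in hypertonic medium of the knockout line without Torin1 (log2, y axis) against the change of wild-type cells with Torin1 (x axis) for each tested gene, coloured by calls. Slc5a3 lies at 2.15 on the x axis and -1.52 on the y axis, and 310 genes were called in both.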

How the data were processed

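Total RNA of 18 samples in 6 groups of 3 was hybridised to Affymetrix mouse gene arrays. The deposited values are log2 expression per probe set, normalized by RMA in R 2.11.1, per the submitters' processing notes. RMA forces similar distributions on all arrays, and array number, not depth, limits precision. Of 34760 probe sets, 21640 name 1 gene, 1321 several and 11799 none. Symbols were updated by gene ID through RefSeq (GRCm38.p6). The probe set with the highest mean stood for each of 19937 genes (954 have several), and 15711 with a group mean above the 30th percentile, 5.86, were tested.

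All 18 arrays were fitted in limma 3.58.1 (R 4.3.3) with 6 group means, and p-values were adjusted by Benjamini-Hochberg over all genes tested. The fit was checked on simulated data, with values drawn independently for each array. Those data held no deviations shared by same-numbered arrays, so the check does not cover that feature of the real arrays. Same-numbered Torin1 arrays deviated together (correlations 0.511, 0.464 and 0.750 for numbers 1, 2 and 4), so the numbers were taken as pairs from the data, and the replicate block, which called 1235 genes, is given beside calls of named genes that it changes and list counts that it moves by over 1.5 times.

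Named genes were the 12 largest called changes each way without overlap, gene models and multi-copy families left out, the 8 largest called differences each way between the responses with and without Torin1 and the 5 largest against the knockout line, a fixed roster (Nfat5, Slc5a3, Mrps6, Slc6a12, Slc6a6, Slc38a2, Aqp1, Hspa4l, Hspa1a, Hsph1, Sgk1, Ddit4, Ddit4l, Sesn1, Sesn2), and up to 4 members of each gene list. Members and lists were chosen with earlier results of these data known. Alternatives covered the filter, probe set averaging, normalization, prior, array weights, arrays entering the fit, the replicate block, the mislabelled array and leave-outs.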

Additional observations from a re-analysis of the deposited data

Results flagged for a closer look

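The hypertonic response differed between wild-type cells with Torin1 and the knockout line without it, by a test of the difference itself (limma, adjusted p under 0.05), for the following named genes. Line and inhibitor cannot be told apart in these differences, which are given as log2 values, wild-type with Torin1 minus knockout.

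Among genes raised in wild-type cells with Torin1 the differences were 3.66 for Slc5a3, 2.75 for Mrps6, 2.85 for U90926, 2.67 for Tnfrsf23, 2.59 for Tnfrsf22, 2.46 for Tcim and 1.95 for Prrg4. They were 1.75 for H1f3, 1.57 for H1f10, 1.70 for Myct1, 1.57 for Nrp1, 1.49 for Sema3e, 1.31 for Cd93, 1.18 for Thbd, 1.30 for Tnfrsf21, 1.17 for Csf1r and 1.62 for Slc1a3. Klf4 and Hmox1 rose in both, with differences of -1.08 and -0.86.

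Among genes lowered with Torin1 the differences were -1.22 for P4ha3, -1.34 for Slc1a1, -0.36 for Acta2 and -1.0 for Mir99a. The chromosome 12 microRNA genes were lowered further in the knockout line, with differences of 1.44 for Mir377, 1.6 for Mir376b, 1.26 for Mir300, 0.99 for Mir679 and 0.93 for Mir329. Sesn1, not called with Torin1, differed by 0.62.

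Genes raised in the knockout line and not called with Torin1 differed by -4.95 for Il1f9, -2.81 for Ccl3, -2.12 for Tor1aip2, -2.03 for Plcxd2 and -1.90 for Rbm38. Averaging the probe sets of Tor1aip2 gave -0.78.

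Of these 34 differences, 25 stayed called in each of the 12 fits without 1 array. The adjusted p of the other 9 missed the threshold in 2 fits for Hmox1 (0.0505 and 0.0599), 6 for Tcim (up to 0.0671), 8 for Ccl3 (up to 0.0939) and 8 for H1f3 (up to 0.0869). It did so in 9 fits for Acta2 (up to 0.0715) and Tnfrsf21 (up to 0.0957), and in 10 for Rbm38 (up to 0.0885), Sesn1 (up to 0.121) and Csf1r (up to 0.0958).

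Probe sets that name no gene entered no comparison above. Of 8512 that passed the filter, 156 were called in hypertonic medium with Torin1, 1.83%, of which 13 were higher and 143 lower.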

How the results depend on the processing

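The 530 calls with Torin1 became 2031 with array weights, 23 in a fit of only the 6 Torin1 arrays, 1235 with the replicate block, 1607 with the replicate block on only those arrays, and 315 with isotonic knockout array 1 as wild-type. They ranged from 161 to 520 when 1 Torin1 array was left out, and were 0, 0 and 1564 without all arrays of number 1, 2 and 4, a choice made after seeing the data. The 71 calls of at least 2-fold became 163 with array weights, 15 with only the Torin1 arrays, 121 with the replicate block on only those arrays, 0, 0 and 172 without number 1, 2 and 4, and 35 to 114 without 1 array. The difference between responses with and without Torin1 had 0 calls, except 1 with array weights (Ggnbp2os, -0.75, adjusted p = 0.0492) and 1 without number 4 (Ddit4l, -1.62, adjusted p = 0.0277). The 1932 calls against the knockout line became 3977 with array weights, 1134 with isotonic knockout array 1 as wild-type, 220, 1 and 3353 without number 1, 2 and 4, and 1309 to 2201 without 1 array. The fit of only the Torin1 arrays has fewer samples to estimate the spread; other causes were not tested. Of the 24 genes with the largest changes, 5 kept their calls in that fit, 18 with isotonic knockout array 1 as wild-type, 22 with a trended robust prior, 23 with averaged probe sets and 0 without number 1 or number 2. All 24 kept them under no filter, the stricter filter, both renormalizations, array weights, both block fits and without number 4. Small differences turned direction: Nfat5 from 0.10 to -0.011 without number 2, Sesn2 from -0.07 to 0.0089 without number 1, and to between -0.14 and 0.041 without 1 array (0.041 without hypertonic array 1, 0.02 without isotonic array 4). With isotonic knockout array 1 as wild-type, the difference with minus without Torin1 turned from -0.72 to 0.059 for Slc5a3 and from -0.30 to 0.31 for Mrps6. Of 32 list medians 9 changed sign under some alternative, the interferon and acute-phase medians by the most. Among the genes of the largest changes, the largest differences and the fixed roster, the replicate block changed 3 calls in the response with Torin1. These were Slc38a2, Hspa4l and Hsph1. It also changed calls of list members, such as H1f2. With 3 arrays a group, the median gene's 95% interval of the response extends 0.28 to each side.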
